A study of Mus musculus with 6 samples.

Results

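Cxcl9, Cxcl10, Cxcl11 and Cxcr3 are the 4 genes described here, out of 33696 features counted in each library. They were chosen by gene symbol, as a receptor and its ligands, and each symbol matched 1 feature. The identifiers are ENSMUSG00000029417 for Cxcl9, ENSMUSG00000034855 for Cxcl10, ENSMUSG00000060183 for Cxcl11 and ENSMUSG00000050232 for Cxcr3. All 4 were detected in all 5 libraries used. Summed over the kept cells, Cxcl9 gave from 1909 counts (combod18t) to 67652 (CTX), Cxcl10 from 1367 to 17959, Cxcl11 from 544 to 23941 and Cxcr3 from 669 (ctxd18t) to 1123 (CTX).

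CXCL9, CXCL10 and CXCL11 are small secreted chemokines that bind the G protein-coupled receptor CXCR3. The receptor is carried by activated and memory T cells, natural killer (NK) cells and plasmacytoid dendritic cells, which move towards the ligands. Interferon gamma induces all the ligands, while type I interferon and NF-kB signals also act on Cxcl10 and Cxcl11. In tumours, macrophages and type 1 conventional dendritic cells are the best known sources of CXCL9.

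The promoters of Cxcl9 and Cxcl10 are shown because the ratio of the 2 genes' counts differed between cell classes. Both come from the RefSeq table of mouse build GRCm38.p6, as the 250 bases before the gene's start, on the minus strand of chromosome 5. The Cxcl9 window is chr5:92328080-92328329 and the Cxcl10 window is chr5:92348890-92349139. Capitals mark matches to the motifs searched on both strands.
Cxcl9: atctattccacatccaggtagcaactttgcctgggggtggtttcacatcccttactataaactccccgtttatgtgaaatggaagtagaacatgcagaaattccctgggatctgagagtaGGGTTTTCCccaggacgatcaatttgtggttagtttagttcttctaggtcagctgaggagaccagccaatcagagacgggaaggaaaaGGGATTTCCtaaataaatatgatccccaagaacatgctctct
Cxcl10: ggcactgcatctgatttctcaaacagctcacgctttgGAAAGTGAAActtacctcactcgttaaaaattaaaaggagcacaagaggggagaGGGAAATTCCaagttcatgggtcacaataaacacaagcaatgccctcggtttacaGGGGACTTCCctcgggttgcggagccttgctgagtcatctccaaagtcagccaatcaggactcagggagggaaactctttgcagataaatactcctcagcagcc
The motifs were the core of the interferon-stimulated response element (ISRE: GAAA, any 2 bases, GAAA), the gamma activated site (GAS: TTC, any 3 bases, GAA), an NF-kB site (GGG, any 2 or 3 bases, TTCC) and a T-box half-site (TCACACCT). The Cxcl10 window held 1 ISRE core, which 2.98% of 32851 promoter windows of the same length held. It also held 2 matches to the longer NF-kB form (4.65% of windows), 1 of which contained a match to the shorter form. The Cxcl9 window held 2 matches to the shorter form (4.98% of windows). GAS (7.02% of windows) and the T-box half-site (1.12%) had no match in either window. The Cxcr3 window on chromosome X, from 101734148 to 101734397, matched none of these letters. RefSeq lists Cxcl11 as a transcribed pseudogene in this assembly, and its promoter is named only. Its counts are given as the files list them, as transcripts and not as protein. A match is a description of letters and not a bound site. The count files use build GRCm39, so no coordinate was carried between them.

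The cells came from mouse mammary tumours, sorted for viability and for CD45, the common leukocyte antigen, and were captured by droplet single-cell RNA sequencing of transcript 3' ends. The series title names MERTK inhibition and cyclophosphamide in triple negative breast cancer, and each library carries 1 treatment label. MRX, CTX and Combined share 1 multiplexed run by the protocol, which treats day 7 mice 3 hours before harvest. The labels ctxd18t and combod18t carry d18, read here as day 18, although the protocol listed for them also gives day 7 and 3 hours. The labels are not spelt out further, and strain, age, tumour model and number of animals per library are not given in the sources used here. MRX, CTX, Combined, ctxd18t and combod18t gave 5169, 8520, 4285, 3826 and 3853 kept cells, at median depths of 6239 to 8907 UMIs (unique molecular identifiers, 1 per captured transcript). The sixth library, VC, was not analysed here. With 1 library per label there is no replicate check and no test of any difference. All intervals are 95% intervals that cover counting error only.

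Cells were grouped by clustering without the 4 genes, and classes were named by marker genes. Runs of 5 values without names follow the order MRX, CTX, Combined, ctxd18t, combod18t. Levels are CPM: the counts of a class in 1 library were added over its cells and scaled to 1000000. All defining markers of the neutrophil-like class (8), the plasmacytoid dendritic-like class (pDC-like, 9) and the epithelial-like class (7) were detected in each library with at least 20 cells of the class. In the type 2 conventional dendritic-like class (cDC2-like) 1 of 8 markers was at 0 in combod18t. The fibroblast-like class of combod18t lacked 4 of 7 markers, so fibroblast-like values are not given. Barcodes were shared between libraries with and without d18 in the label. CTX and combod18t shared 34 barcodes, Combined and ctxd18t shared 21, and every other pair shared 0. Combined and ctxd18t therefore used 1 barcode set, and CTX and combod18t another, so the sets cross the treatment labels between the days. The protocol names no barcode set for the day 18 libraries, and whether their labels follow the sets was not tested. If those 2 labels were exchanged, every log2 ratio of combod18t over ctxd18t given here would change sign. Leaving out the cells with shared barcodes moved 0 of 192 levels and 0 of 41 log2 ratios out of their counting intervals.

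Cells outside the monocyte-macrophage-like class held most of the Cxcl10 counts in MRX, ctxd18t and combod18t. Monocyte-macrophage-like cells held 35.2% of Cxcl10 counts for MRX, 66.5% for CTX, 49.6% for Combined (exact Clopper-Pearson interval 48.5 to 50.7), 41.2% for ctxd18t and 11.7% for combod18t. For Cxcl11 these shares were 84.0%, 83.0%, 67.9%, 58.8% and 28.1%. Combod18t, where that class made up 5.84% of cells, therefore had the smallest macrophage share of both. There, T-like cells held 33.5% of Cxcl10 counts and neutrophil-like cells 30.9%. Neutrophil-like cells also held 30.1% of the Cxcl11 counts of combod18t, from 7.55% of its cells. These shares follow the number of cells in each class as well as the level per cell. They leave out clusters 11 and 16, which mix macrophage genes with those of T cells or pDCs. With those counted as macrophages the Cxcl10 shares were 37.1%, 74.9%, 59.2%, 55.1% and 24.9%, so other cells then held most of the counts in MRX and combod18t alone. Cluster 23, left unnamed and with all 14 macrophage markers detected, was also counted outside and held 1.98% of the Cxcl10 counts of CTX and 0.456% of those of Combined. For Cxcl11 the shares were then 86.2%, 92.7%, 84.1%, 79.04% and 57.2%.

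**Figure D1:**
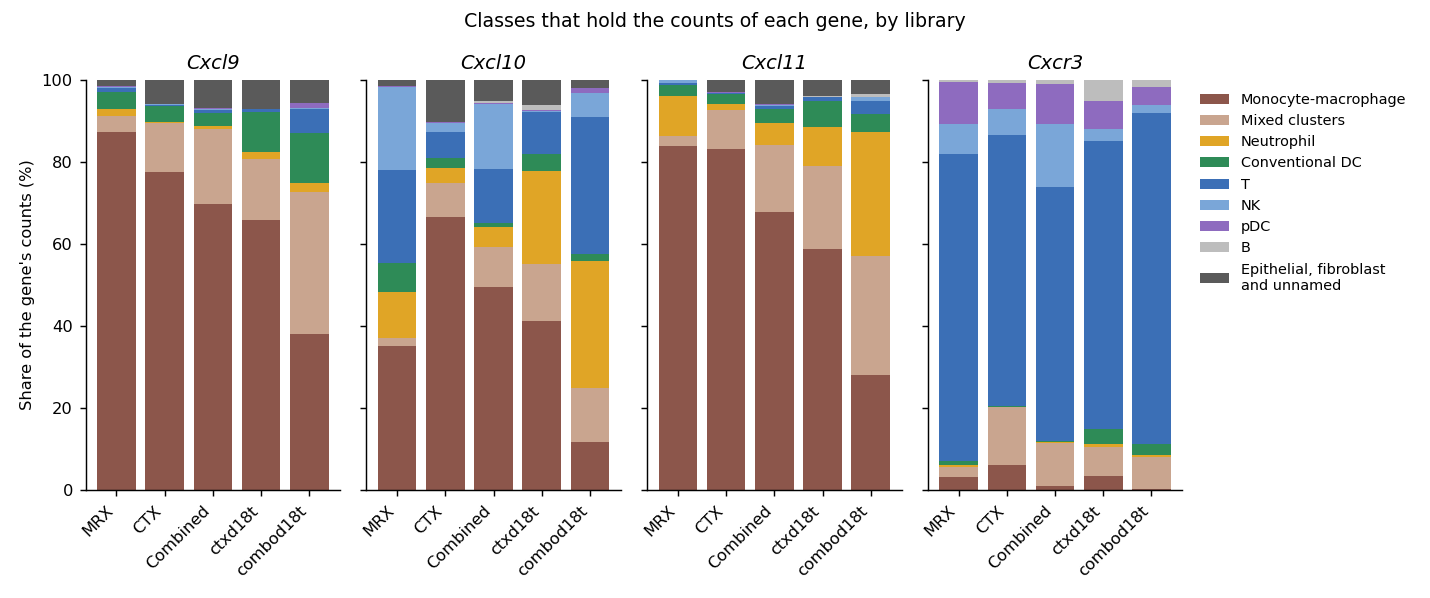
Share of the counts of each gene (vertical axis, percent) held by each class in each library (bars), with all kept cells of a library adding to 100%. Macrophage shares of Cxcl10 run from 11.7% to 66.5%, and T-like cells hold 61.8% to 80.7% of Cxcr3.

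Neutrophil-like cells, marked by S100a8, S100a9 and Retnlg, carried all 3 chemokines. Their Cxcl10 level was 192 CPM for MRX (exact Poisson interval 170.0 to 217), 1579.6 for CTX (1460.3 to 1706), 1345 for Combined (1216 to 1483), 592 for ctxd18t (556 to 630.3) and 259.6 for combod18t (235 to 286). In each library this was above the Cxcl10 level of the whole monocyte-macrophage-like class, which was 70.9, 237, 284, 157 and 52.5 CPM in the same order. Within that class cluster 15, led by Rsad2 and Mx1, held 66.2%, 46.5%, 22.8%, 45.3% and 9.38% of the Cxcl10 counts. It made up 4.95%, 10.9%, 7.41%, 7.94% and 4.0% of the cells of the class. Cluster 15 alone was not set against neutrophil-like cells. The neutrophil-like Cxcl11 level was 127, 778, 1087, 119 and 101 CPM. For Cxcl9 the levels were 47.7, 541, 537, 56.997 and 23.4 CPM. CTX and Combined were thus high for each chemokine in this class, and MRX and the day 18 libraries low.

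These counts came from few neutrophil-like cells. Cells with a Cxcl10 UMI numbered 20 of 458, 33 of 92, 42 of 77, 40 of 333 and 29 of 291. The highest cell alone held 24.8%, 26.9%, 27.2%, 15.9% and 34.6% of the counts. Without that cell the levels were 145, 1165, 987, 499 and 170.3 CPM, in the same order of libraries as before. With each cell thinned to 1000 UMIs, 21.6% of cells in CTX (exact Clopper-Pearson interval 13.5 to 31.6) and 34.7% in Combined (24.04 to 46.5) had a Cxcl10 UMI. For MRX it was 3.34% (1.88 to 5.45), for ctxd18t 8.48% (5.71 to 12.03) and for combod18t 6.01% (3.54 to 9.44). Unthinned shares were 4.37%, 35.9%, 54.5%, 12.01% and 9.97%. B-like cells, used as background, gave 0% to 0.523% after thinning. They were not free of high cells, since 1 cell held 39 of their 50 Cxcl10 counts in ctxd18t and 1 held 18 of 37 in Combined. Median depth was 2823.5 to 4258 UMIs in neutrophil-like and 4007 to 8227.5 UMIs in B-like cells.

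Against MRX, all 3 chemokines were past the fold used here in neutrophil-like cells of both CTX and Combined. That fold is a log2 ratio of CPM + 1 of at least 1 in size, with a counting interval that excludes 0, among genes with at least 50 counts over the pair. The same rule called 11.1% of genes higher and 11.3% lower in CTX, and 6.89% higher and 6.72% lower in Combined. Cxcl9 had log2 ratios of 3.48 (3.10 to 3.92) in CTX and 3.46 (3.07 to 3.93) in Combined. Cxcl10 had 3.03 (2.83 to 3.25) and 2.80 (2.58 to 3.03), and Cxcl11 had 2.61 (2.35 to 2.89) and 3.09 (2.83 to 3.38). Both comparisons share the MRX library.

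Between Combined and CTX no chemokine passed the fold in neutrophil-like cells, where 4.01% of genes were called higher and 5.41% lower. The log2 ratio was -0.01 for Cxcl9 (-0.31 to 0.29), -0.23 for Cxcl10 (-0.42 to -0.05) and 0.48 for Cxcl11 (0.26 to 0.71). With each library clustered separately Cxcl10 turned to 0.30 (0.14 to 0.46). At day 18 Cxcl9 was lower in combod18t than in ctxd18t by a log2 ratio of -1.25 (-1.87 to -0.73), and Cxcl10 by -1.19 (-1.36 to -1.02). These 2 of 3 chemokines stand beside 1.25% of genes called lower and 1.44% higher. Cxcl11 had -0.24 (-0.55 to 0.06), an interval that holds 0. With cells thinned to 1000 UMIs the Cxcl10 value was -0.95 and no longer passed, and Cxcl9 had -1.001 (-2.90 to 0.57) from 17 counts. In Cxcl9, 1 cell held 62 of 95 counts of ctxd18t and 1 cell held 24 of 38 of combod18t.

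In neutrophil-like cells the macrophage markers were highest in CTX and Combined, as the chemokines were. The 14 monocyte-macrophage markers summed to 1343, 7401, 4481, 2587 and 2879.8 CPM, with none at 0. At day 18 they were higher in combod18t, where Cxcl9 and Cxcl10 were lower. Cells with a Cxcl10 UMI held 3121, 6733, 4950, 2511 and 4227 CPM of this list. Those without held 1235, 7822, 3774, 2600 and 2699 CPM, less in MRX, Combined and combod18t and more in CTX and ctxd18t. The 8 neutrophil markers summed to 66198, 47665, 37983, 62896 and 65202 CPM, lowest in CTX and Combined. In monocyte-macrophage-like cells the macrophage list summed to 14522 to 20448 CPM. Lyz2, a lysozyme gene that neutrophils also express, made up 4412 CPM of the neutrophil-like sum in CTX and 484 CPM in MRX. Neutrophil-like cells with no UMI of 6 macrophage genes (C1qa, C1qb, C1qc, Csf1r, Adgre1 and Mrc1) had Cxcl10 at 308, 3999, 809, 688 and 386 CPM. This was below the whole class in Combined, at 809 (647 to 999.3) against 1345 CPM, and above it in the other 4 libraries. Their Cxcl11 level was 185, 1877, 1411, 65.6 and 165 CPM. Their Cxcl9 level was lower than in the whole class in each library, at 18.4, 299.9, 198, 11.1 and 4.81 CPM. This selection was made after seeing the data, and it kept 36 cells in CTX and 37 in Combined. Within it Cxcl10 was lower in Combined than in CTX by a log2 ratio of -2.30, and Cxcl11 had -0.41 (-0.74 to -0.09), against 0.48 in the whole class. At day 18 the same cells gave -0.83 (-1.03 to -0.64) for Cxcl10, which did not pass the fold. Cxcl11 turned to 1.31 (0.89 to 1.78), past the fold and higher in combod18t.

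Among dendritic cells, cDC2-like cells, marked by Cd209a and Mgl2, carried Cxcl9 at levels above those of T-like, NK-like and B-like cells. The Cxcl9 level was 76.4 CPM for MRX (62.9 to 91.8), 743 for CTX (712 to 775), 714 for Combined (656 to 776), 157 for ctxd18t (138 to 178) and 103 for combod18t (83.5 to 126). Cxcl11 was at 25.01, 140.01, 245, 72.5 and 15.03 CPM in this class. Cxcl10 was at 91.9, 63.3, 116, 63.2 and 14.0 CPM. CTX and Combined were therefore high for Cxcl9 and Cxcl11 but not for Cxcl10, whose level in MRX lay between theirs. With cells thinned to 1000 UMIs, 30.2% of cDC2-like cells in CTX (23.95 to 37.04) and 31.5% in Combined (19.5 to 45.6) had a Cxcl9 UMI. In MRX the share was 4.48% (1.66 to 9.49). Unthinned, these 3 shares were 62.4%, 61.8% and 17.0%. B-like cells gave 0% to 0.472% after thinning, and cDC2-like cells were deeper than B-like cells, at medians of 10442 to 21393 UMIs.

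In cDC2-like cells against MRX, 2 of 3 chemokines passed the fold in CTX and in Combined, where 2.96% and 3.84% of genes were called higher (2.22% were lower in CTX). Cxcl9 had 3.27 (3.01 to 3.57) and 3.21 (2.93 to 3.53), and Cxcl11 had 2.44 (2.0 to 3.01) and 3.24 (2.78 to 3.84). Cxcl10 had -0.53 (-0.87 to -0.21) in CTX and 0.33 (-0.06 to 0.73) in Combined. Between Combined and CTX none of the 3 passed, beside 0.999% of genes called higher and 1.82% lower. Cxcl10 and Cxcl11 were higher in Combined by 0.87 (0.50 to 1.25) and 0.80 (0.55 to 1.06), and Cxcl9 had -0.06 (-0.20 to 0.08). With at least 500 genes per cell Cxcl10 had 0.13 (-0.22 to 0.47) and Cxcl11 0.54 (0.28 to 0.79), while thinned cells gave 2.23 and 1.67 from 16 and 39 counts. The mean of single-cell CPM gave 1.19 and 1.05, beyond the fold. In all conventional dendritic classes summed, Cxcl10 went the other way, at 85.8 CPM in Combined and 124 in CTX (log2 ratio -0.53, -0.88 to -0.20), and Cxcl11 had 0.26 (0.02 to 0.50). At day 18 cDC2-like Cxcl10 and Cxcl11 were lower in combod18t, by -2.10 (-3.14 to -1.34) and -2.20 (-3.19 to -1.46), beside 1.78% of genes called lower and 2.74% higher. Cxcl9 had -0.60 (-0.96 to -0.26). Different clusters held most of the class in these libraries. Cluster 22 held 50 of 79 cells in ctxd18t and 18 of 43 in combod18t, and cluster 26 held 22 and 23. Within cluster 22, Cxcl10 had 82 counts in ctxd18t (98.9 CPM) and 2 in combod18t, and Cxcl11 had 107 and 5. Within cluster 26, ctxd18t and combod18t had 22.7 and 16.6 CPM of Cxcl10, from 13 and 11 counts, and 3.50 and 13.6 CPM of Cxcl11, from 2 and 9 counts. Cluster 26 had Cd209a and Cd209e among its leading genes and also held T-cell transcripts, with a Cd8a UMI in 45.5% of its ctxd18t cells and 26.1% of its combod18t cells. The rule that set mixed clusters apart was not applied to the dendritic clusters, and clusters 22, 26 and 27, which form the cDC2-like class, all met its numbers. Their second lineage was monocyte-macrophage in clusters 22 and 27 and plasma cell in cluster 26, at median depths of 1.60, 1.79 and 2.98 times that of the library.

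The other conventional dendritic classes were small. Type 1 conventional dendritic-like cells (cDC1-like, led by Xcr1 and Clec9a) had 92.4 CPM of Cxcl9 in MRX (64.7 to 128) and 304 CPM in ctxd18t (268 to 344), the libraries with at least 20 of them. They had 0 Cxcl10 counts in MRX, which allows up to 7.70 CPM at 3 counts, and 10.7 CPM in ctxd18t. In CTX 16 cDC1-like cells held 281 Cxcl9 and 200 Cxcl10 counts, and in combod18t 1 of 15 cells held 109 of the 135 Cxcl9 counts. Migratory dendritic-like cells (led by Fscn1 and Ccl22) had 344 CPM of Cxcl9 in CTX (291 to 404) and 63.1 CPM in ctxd18t (44.2 to 87.3). Their Cxcl10 level was 147 and 124 CPM, but 43 of 63 and 56 of 71 counts lay in 1 cell each. pDC-like cells stayed at or below 18.6 CPM of any chemokine.

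**Figure D2:**
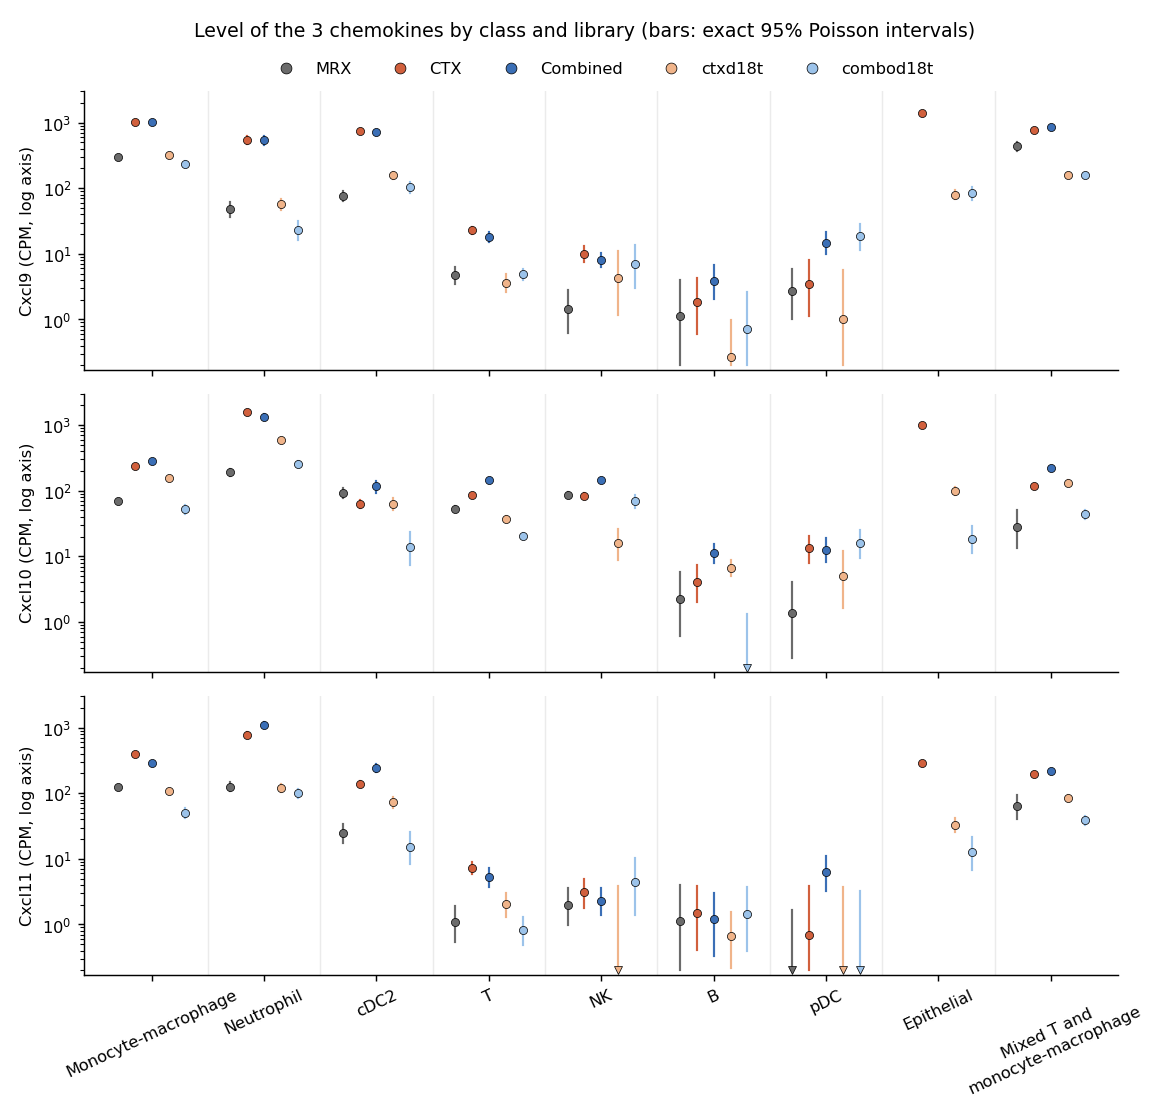
CPM of Cxcl9, Cxcl10 and Cxcl11 (log axes) by class, with 1 point for each library of at least 20 cells. Bars are exact Poisson intervals, and triangles mark 0 counts. CTX and Combined are the highest of the 5 libraries for all 3 genes in neutrophil-like cells, and NK-like cells have 15.9 to 147 CPM of Cxcl10 and at most 4.37 CPM of Cxcl11.

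T-like and NK-like cells carried Cxcl10 with little Cxcl9 or Cxcl11. In NK-like cells the Cxcl10 level was 86.6 CPM for MRX (79.0 to 94.7), 84.3 for CTX (76.6 to 92.6), 147 for Combined (139 to 156), 15.9 for ctxd18t (8.92 to 26.3) and 69.0 for combod18t (54.6 to 86.0). In T-like cells it was 53.6, 84.8, 144, 37.7 and 20.6 CPM. Combined was thus the highest library for Cxcl10 in both classes. B-like cells had 2.25, 4.07, 11.1, 6.72 and 0 CPM, the last allowing up to 1.09 CPM at 3 counts. Cxcl11 lay between 0 and 4.37 CPM in NK-like cells and between 0.811 and 7.34 CPM in T-like cells. After thinning, 6.82% of NK-like cells in Combined had a Cxcl10 UMI (5.29 to 8.62), against 4.405% in CTX (2.92 to 6.34) and 2.90% in MRX (1.75 to 4.49). For T-like cells the shares were 6.33% in Combined (4.88 to 8.06), 4.49% in CTX (3.56 to 5.59) and 1.80% in MRX (1.25 to 2.52). They were 2.34% in ctxd18t and 0.621% in combod18t. Unthinned, Cxcl10 was seen in 21.4% of NK-like and 18.4% of T-like cells of Combined. A few cells held most of the counts here too. Cells with at least 10 Cxcl10 counts numbered 22 of 944 NK-like and 27 of 971 T-like cells in Combined, and held 60.6% and 67.1% of the counts of their class. In MRX 12 of 659 NK-like cells held 67.1%.

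Cxcl10 was higher in Combined than in CTX in both classes, by a log2 ratio of 0.80 (0.65 to 0.97) in NK-like and 0.75 (0.64 to 0.88) in T-like cells. Neither passed the fold, which 0.218% of genes did upwards and 0.135% downwards in NK-like cells, and 0.621% and 0.353% in T-like cells. Against MRX, Cxcl9 and Cxcl11 passed in T-like cells of CTX (2.39% of genes higher) and all 3 chemokines in those of Combined (2.53%). T-like cells with a Cxcl9 UMI held more macrophage marker counts than those without, at 1096 against 502 CPM in CTX and 2052 against 487 CPM in Combined, and the part of these transcripts in the call was not tested. In NK-like cells Cxcl9 alone passed in CTX (0.917% of genes) and in Combined (1.25%). NK-like cells with a Cxcl9 UMI also held more macrophage marker counts, at 1136 against 719 CPM in CTX and 995 against 575 CPM in Combined. NK-like cells with no UMI of the 6 macrophage genes had 1.61, 4.67 and 3.96 CPM of Cxcl9 in MRX, CTX and Combined. These rest on 8, 19 and 27 counts, and the call was not read in them. At day 18 Cxcl10 in T-like cells of combod18t was lower by -0.84 (-1.06 to -0.68), and 0 of 3 chemokines passed, beside 2.49% of genes called lower and 2.25% higher. With thinned cells that value was -2.09 (-2.99 to -1.47, 74 counts), and with the mean of single-cell CPM -1.47, both beyond the fold. Cluster 2 made up 50.1% of the T-like cells of combod18t and 15.2% of those of ctxd18t. It held 1.53% and 0.22% of their Cxcl10 counts, and the part of this mix in the Cxcl10 value was not tested. NK-like cells of combod18t were higher by 2.05 (1.31 to 3.02), beside 1.79% of genes called higher. That value rests on 15 counts in ctxd18t and 79 in combod18t, of which 1 cell held 41. Without its highest cell combod18t was at 34.0 CPM, and among cells without macrophage transcripts the log2 ratio was 0.74. Cells with no UMI of these genes otherwise kept the Cxcl10 level in MRX, CTX and Combined. It was 85.4, 77.7 and 145 CPM in NK-like and 51.9, 95.1 and 149 CPM in T-like cells. Among cells with no UMI of these genes Cxcl9 was at 4.67 CPM or less in NK-like and 14.4 CPM or less in T-like cells.

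Within T-like cells Cxcl10 followed cluster. In cluster 6, led by Gzmk, Ccl5 and Cd8a, it was at 71.5, 97.3, 237, 92.7 and 23.6 CPM. In cluster 13, the cycling cells, it was at 166, 114, 225, 40.3 and 18.3 CPM. In cluster 2, led by Lef1 and Igfbp4, genes of resting T cells, it was at 2.46, 6.78, 0, 0.77 and 0.83 CPM. Cluster 2 therefore lay below cycling and Gzmk cells in every library. Cluster 21, led by Il17a, Il23r and Trgc1, had 684 CPM in Combined. There 14 of 31 cells had a Cxcl10 UMI, and 1 cell held 45 of 148 counts. Without the highest cell of each library, cluster 21 was at 16.5 CPM in MRX, 505 in Combined and 54.7 in combod18t. CTX and ctxd18t had 3 and 8 of its cells. The cells with a Cxcl10 UMI were deeper than those without, at a median of 9295 against 5192 UMIs in T-like and 11196 against 7654 UMIs in NK-like cells of Combined, and the part of depth was not tested.

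Clusters with transcripts of more than 1 lineage held much of the Cxcl9 outside macrophages. Cluster 11 had C1qa and other macrophage genes together with T-cell genes, at a median cell depth of 2.28 times the median of the same library, and was kept apart as mixed. It made up 0.484%, 4.34%, 2.71%, 3.87% and 3.79% of cells, or 25, 370, 116, 148 and 146 cells. Without doublet removal it held 120, 650, 222, 202 and 174 cells. With each library clustered separately a cluster of this kind was formed in Combined (129 cells) and in no other library. It held 3.88% of the Cxcl9 counts of MRX, 7.71% of CTX, 10.2% of Combined, 11.8% of ctxd18t and 33.7% of combod18t. Its Cxcl9 level was 440.4, 759.6, 871, 161 and 158 CPM, below that of monocyte-macrophage-like cells in CTX, Combined and both day 18 libraries and above it in MRX. Cxcl10 in cluster 11 was at 27.7, 119, 219.6, 133 and 43.7 CPM. Its log2 ratio was 0.88 (0.72 to 1.04) for Combined against CTX and -1.59 (-1.86 to -1.36) at day 18. At day 18 Cxcl11 had -1.12 (-1.42 to -0.87) and Cxcl9 -0.03 (-0.19 to 0.13), so 2 of 3 chemokines passed, beside 0.788% of genes called lower. Neither call held under all alternatives: Cxcl11 had -0.09 (-1.30 to 1.11, 27 counts) with thinned cells, and Cxcl10 had -0.97 with the mean of single-cell CPM. Between Combined and CTX none passed, beside 0.316% called higher and 0.523% lower. Against MRX, Cxcl10 and Cxcl11 passed in CTX (2.39% of genes higher) and in Combined (4.28%). In monocyte-macrophage-like cells, for comparison, all 3 passed against MRX (1.65% and 2.44% of genes higher), none between Combined and CTX (0.145% higher, 0.52% lower), and Cxcl10 and Cxcl11 at day 18 (2.01% lower). The last call was lost with each library clustered separately, where Cxcl11 had -0.08 (-0.66 to 0.45, 240 counts) in place of -1.09, and also with thinned cells (-0.62) and with the mean of single-cell CPM (-0.73). A pseudocount of 10 CPM gave -0.97 for Cxcl11 in both cell sets. Different clusters held most of the monocyte-macrophage-like class. Cluster 0, led by Ly6i, Inhba and Lpl, made up 6.33% of it in MRX, 52.1% in CTX and 70.7% in Combined, and cluster 5, with F13a1 and Fn1 among its leading genes, 57.3%, 10.499% and 8.01%. Within cluster 0 MRX was the highest of these 3 libraries, at 1712, 1304 and 1061 CPM of Cxcl9 and 445, 334 and 274 CPM of Cxcl11, but not for Cxcl10, at 165, 151 and 255 CPM. Within cluster 4, led by Hbb-bs and C1qa, it was the lowest, at 244, 893 and 1229 CPM of Cxcl9 and 83.8, 286 and 145 CPM of Cxcl11. The barcodes of cluster 11 also held 14.4 CPM of Cxcr3 in CTX and 21.9 in Combined, between the levels of T-like and monocyte-macrophage-like cells. Whether they are doublets was not tested. A second mixed cluster, with pDC genes such as Siglech and Klk1, had 727 CPM of Cxcl9 in CTX, 738 in Combined and 222 in ctxd18t. Unlike in cluster 11, its Cxcl10 was lower in Combined than in CTX, at 107 and 178 CPM (log2 ratio -0.73, -0.95 to -0.52), and Cxcl11 had -0.37 (-0.53 to -0.21).

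Epithelial-like cells, of a lineage without CD45, were few but carried all 3 chemokines in CTX. In CTX 58 of them had 1389 CPM of Cxcl9 (1326 to 1456) and 1017 CPM of Cxcl10 (963 to 1074). They held 7.23% of the Cxcl10 counts of that library. In ctxd18t the levels were 79.4 and 100.1 CPM, and in combod18t 83.6 and 18.7 CPM. Ptprc, the gene of CD45, was seen in 8.62% of the CTX cells, 19.8% of the ctxd18t cells and 25.6% of the combod18t cells. The macrophage markers summed to 175 CPM in the CTX cells, less than in T-like cells. A few cells dominated, since 11 of 58 cells in CTX held 98.6% of the Cxcl9 counts. CTX cells with a Cxcl9 UMI had a median of 49646 UMIs and those without 1829, and the part of depth was not tested. The next lineage by marker score was mast cell or basophil, at 0.86 against 1.0. With at least 500 genes per cell no cluster was named epithelial-like. With each library clustered separately 118 CTX cells were. In Combined 1 of 3 epithelial-like cells held 972 Cxcl9 counts, and the 3 cells held 4.69% of the library's Cxcl9.

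The ratio of Cxcl10 to Cxcl9 counts differed between some classes. It was 0.234, 0.228, 0.278, 0.49 and 0.221 in monocyte-macrophage-like cells. In neutrophil-like cells it was 4.03, 2.92, 2.51, 10.4 and 11.1. T-like cells had 11.3, 3.73, 8.04, 10.4 and 4.24, and NK-like cells had 60.0, 8.404, 18.4 and 9.88 for MRX, CTX, Combined and combod18t. In each library the neutrophil-like and T-like ratios were above the monocyte-macrophage-like ratio with intervals that did not overlap. The classes of 1 library therefore did not share 1 ratio. Neutrophil-like and T-like intervals overlapped in CTX and ctxd18t. T-like cells were above neutrophil-like cells in MRX and Combined and below them in combod18t. In cDC2-like cells the ratio was 1.204, 0.0851, 0.163, 0.403 and 0.135, with intervals that overlapped the monocyte-macrophage-like ones in ctxd18t and combod18t. The ratio compares classes and not the genes' absolute levels.

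**Figure D3:**
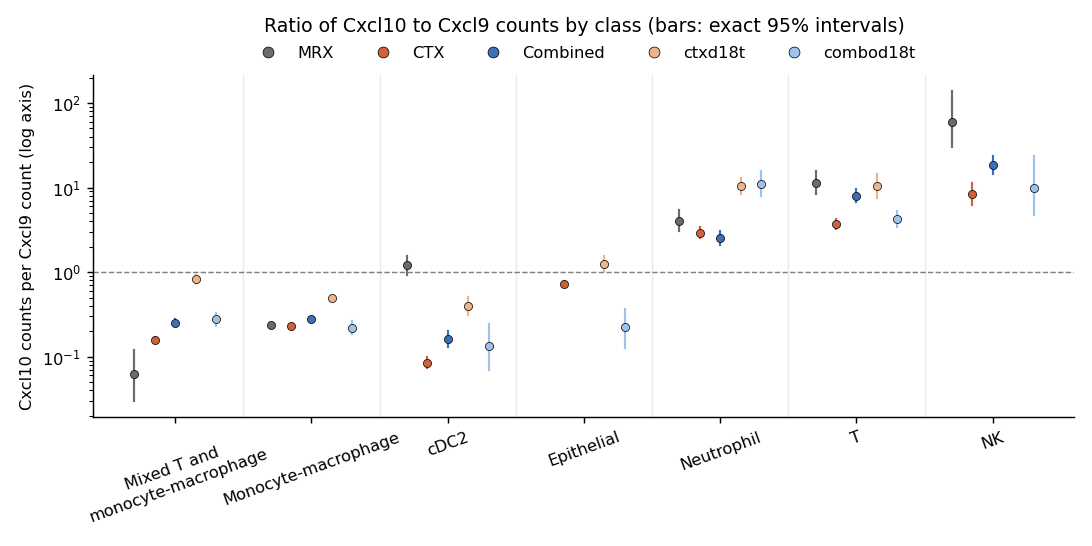
Cxcl10 counts per Cxcl9 count (log axis) by class, with 1 point per library and exact intervals as bars; the dashed line marks equal counts. Neutrophil-like, T-like and NK-like points lie above 1, and monocyte-macrophage-like points lie between 0.221 and 0.49.

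In single cells thinned to 1000 UMIs, Cxcl10 was seen more often with Cxcl9 than without it over all cells and in monocyte-macrophage-like cells, but not in every class. Over all kept cells it was found in 10.2%, 13.7%, 16.1%, 13.1% and 6.78% of cells with a Cxcl9 UMI, and in 2.19%, 6.58%, 6.54%, 3.12% and 1.34% of cells without. In monocyte-macrophage-like cells it was found in 9.17%, 14.2%, 16.5%, 13.6% and 13.6% of cells with Cxcl9 and in 2.87%, 9.36%, 10.1%, 4.62% and 3.02% of those without. In combod18t this was 3 of 22 against 6 of 199 cells, with intervals that overlapped (2.91 to 34.9 and 1.11 to 6.45). Over all kept cells at this depth, more had Cxcl10 alone than both, with 426 and 271 cells in CTX and 239 and 96 in Combined. Thinning loses UMIs, since 1980 of 8459 CTX cells had a Cxcl9 UMI after it and 3728 of 8520 before. A cell with both could therefore be counted as Cxcl10 alone. In neutrophil-like cells Cxcl10 was seen in 4 of 13 cells with and 15 of 75 without Cxcl9 in CTX, and in 3 of 11 and 23 of 64 in Combined, where no order was detectable at this depth. In T-like cells of Combined it was seen in 0 of 24 cells with and 61 of 939 without. In cluster 11 it was seen in 10 of 128 and 21 of 242 in CTX, 8 of 46 and 6 of 70 in Combined, and 0 of 15 and 5 of 131 in combod18t. Cxcl11 went with Cxcl9 in cDC2-like cells of CTX, where 10 of 61 cells with a Cxcl9 UMI had Cxcl11 and 2 of 141 without. Cxcl10 was seen in 2 of 61 and 5 of 141 of the same cells. In cluster 11 of CTX, Cxcl11 was seen in 33 of 128 cells with and 9 of 242 cells without Cxcl9. These counts describe single libraries and carry no test.

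**Figure D4:**
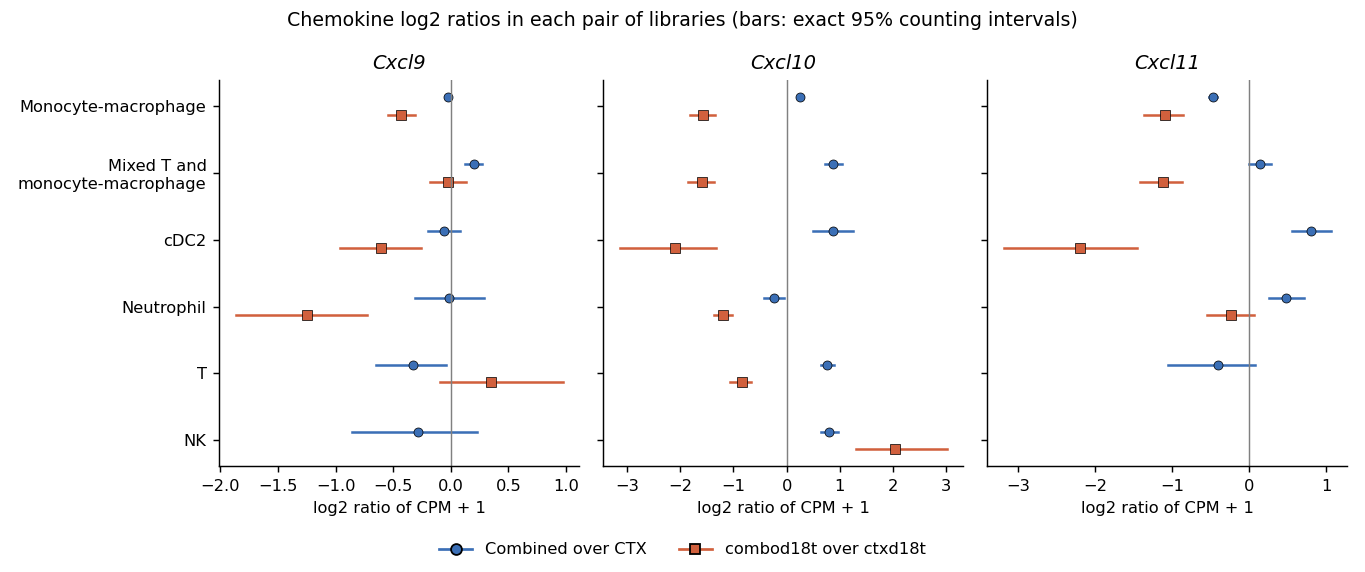
Log2 ratio of CPM + 1 of each chemokine by class for Combined over CTX (circles) and combod18t over ctxd18t (squares), with exact counting intervals as bars; pairs with fewer than 50 counts are left out. Cxcl10 is above 0 in the first pair and below 0 at day 18 in 4 classes, while NK-like cells are above 0 in both.

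The receptor was highest in T-like and pDC-like cells, and NK-like and cDC1-like cells had less of it. The Cxcr3 level in T-like cells was 60.3 CPM for MRX (55.6 to 65.3), 56.6 for CTX (52.6 to 60.8), 74.8 for Combined (68.7 to 81.3), 39.5 for ctxd18t (36.03 to 43.3) and 25.5 for combod18t (23.5 to 27.7). In pDC-like cells it was 38.3, 48.7, 46.4, 46.9 and 27.5 CPM. In NK-like cells it was 11.001, 14.1, 15.6, 19.1 and 12.2 CPM. In cDC1-like cells it was 15.4 CPM in MRX (5.65 to 33.5, 6 counts) and 15.4 in ctxd18t (8.23 to 26.4, 13 counts), intervals that overlap those of NK-like cells. T-like and pDC-like intervals overlapped in CTX, ctxd18t and combod18t, where their order was not detectable at this depth. Neutrophil-like cells, used as background, had 0 to 3.35 CPM and B-like cells 1.68 to 4.57 CPM. With cells thinned to 1000 UMIs, 6.07%, 4.67%, 7.48%, 4.04% and 1.82% of T-like cells had a Cxcr3 UMI. Of neutrophil-like cells 0 of 449 did in MRX, which allows up to 0.668% at 3 counts, and 2 of 283 in combod18t. Without thinning, 4 of 458 neutrophil-like cells of MRX had a Cxcr3 UMI (0.873%). Unthinned, the T-like shares were 22.1%, 23.8%, 30.6%, 21.4% and 12.1%, at median depths of 4703 to 7748 UMIs. Of cDC1-like cells 4 of 30 in MRX and 10 of 37 in ctxd18t had a Cxcr3 UMI unthinned, and 1 and 0 of them after thinning, at median depths of 11963.5 and 20287 UMIs. cDC2-like cells had 1.35, 0.691, 0, 3.99 and 10.7 CPM. All of these 2, 2, 0, 6 and 10 counts lay in cluster 26, the cluster that also held T-cell transcripts, and none in cluster 22.

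Cxcr3 levels ranged from under 1 CPM to over 100 CPM between T-like clusters. Cluster 6 (Gzmk, Cd8a) had 97.4, 106, 111, 101 and 96.0 CPM, a narrow range over the 5 libraries. Cluster 9, led by Foxp3 and Il2ra, genes of regulatory T cells, had 74.0, 71.2, 114, 63.3 and 77.8 CPM. Cluster 10, led by Cd40lg and Tnfsf8, had 69.5, 82.8, 86.5, 54.5 and 59.9 CPM. The cycling cluster 13 held 14.2%, 40.4%, 33.7%, 18.3% and 13.2% of the T-like Cxcr3 counts, the largest share of any cluster in CTX and Combined. The resting cluster 2 had 2.46, 2.26, 12.7, 4.62 and 0.356 CPM, and cluster 12, led by Ccl1 and Penk, had 16.3, 21.6, 19.6, 15.9 and 25.6 CPM. Cluster 2 made up 50.1% of the T-like cells of combod18t and 15.2% of those of ctxd18t, but held 0.529% and 1.28% of their Cxcr3 counts. The log2 ratio for combod18t against ctxd18t was -0.61 (-0.81 to -0.45) in T-like cells as a whole, and -1.08 (-1.71 to -0.53) with thinned cells. With the same mix of clusters in both libraries the level was 31.7 CPM in combod18t and 31.6 in ctxd18t, and of 7 clusters 3 were higher and 4 lower. For Combined against CTX the ratio was 0.40 (0.24 to 0.56). With the same mix it was 0.29, with 5 of 7 clusters higher in Combined. T-like cells with a Foxp3 UMI had 102.5 CPM in Combined (88.1 to 119) and 68.9 in CTX (59.2 to 79.6).

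Cells with a Cd8a UMI and neither a Cd4 nor a Foxp3 UMI had 73.3, 64.4, 89.5, 42.3 and 32.7 CPM of Cxcr3. Cells with a Cd4 UMI and neither Cd8a nor Foxp3 had 50.3, 45.8, 50.7, 27.9 and 10.6 CPM. The Cd8a cells were above these Cd4 cells in each library. Cells with a Foxp3 UMI had 72.96, 68.9, 102.5, 55.7 and 63.2 CPM. Their intervals overlapped those of the Cd8a cells in MRX, CTX, Combined and ctxd18t, and lay above them in combod18t (55.1 to 72.01 against 27.9 to 37.9). In pDC-like cells Cxcr3 was lower in combod18t by a log2 ratio of -0.75 (-1.48 to -0.08), from 31 and 46 counts. In NK-like cells it differed by 0.14 (-0.27 to 0.58) for Combined against CTX and -0.61 (-1.77 to 0.44) at day 18, neither detectable at this depth. Resolution 2 gave 0.68 (0.21 to 1.30) for the first of these and thinned cells -1.06 (-2.32 to 0.03, 29 counts). None of the values over all cells passed the fold, which 1.33% of genes did downwards in pDC-like cells at day 18.

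**Figure D5:**
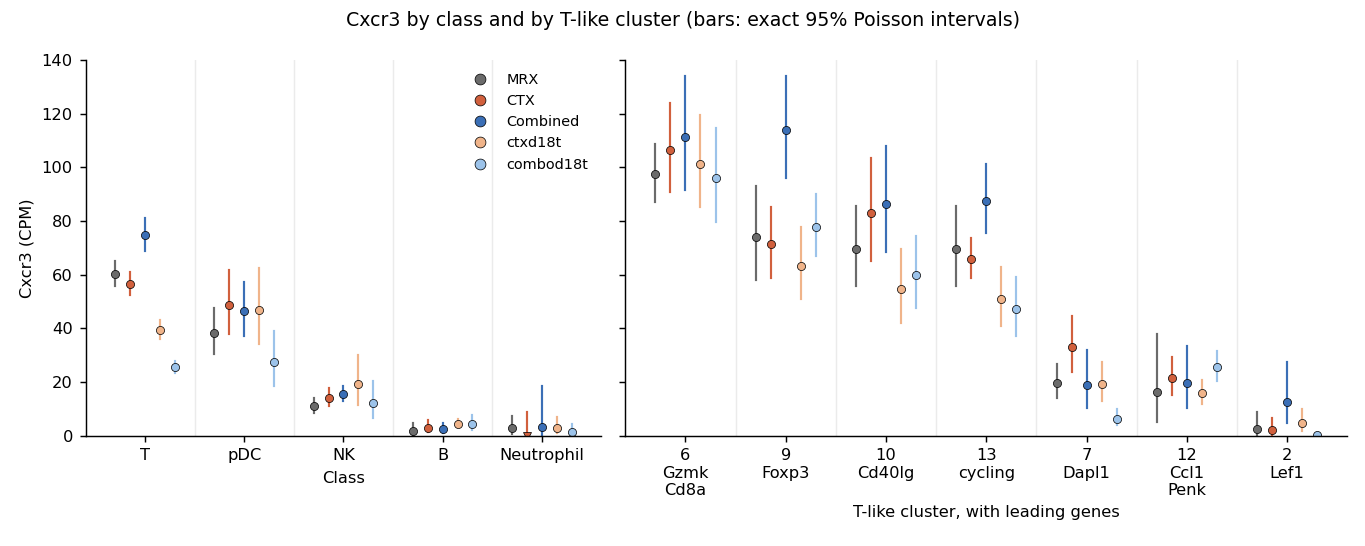
CPM of Cxcr3 by class (left) and by T-like cluster with leading genes (right), with 1 point per library and exact Poisson intervals as bars; a triangle marks 0 counts. Cluster 6 lies between 96.0 and 111 CPM in every library, and cluster 2 at or below 12.7 CPM.

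A list of 39 genes around this axis was read in the same classes. It held interferon gamma (Ifng), its receptors and signalling genes, interferon response genes, NF-kB subunits, and chemokines and receptors of the same cells. In neutrophil-like cells 15 of 26 genes tested were past the fold higher in CTX than in MRX, and 0 lower, beside 11.1% and 11.3% of all genes, with a median log2 ratio of 1.45 where all genes had -0.21. In Combined against MRX 14 of 25 were higher and 0 lower (all genes 6.89% and 6.72%), with a median of 1.32 beside -0.08. Macrophage and neutrophil markers also differed between these libraries in the same cells. The first list went from 1343 CPM in MRX to 7401 in CTX and 4481 in Combined. The second went from 66198 to 47665 and 37983, and the part of either list in the counts was not tested. Among the higher genes Gbp2, an interferon-induced GTPase, was at 112 CPM in MRX, 512 in CTX and 899 in Combined. Between Combined and CTX 1 of 24 was higher, where 4.01% of all genes were, and it was Socs1, an inhibitor of the JAK kinases, at 231 and 105 CPM. At day 18 1 of 28 was higher and 2 were lower in combod18t, beside 1.44% and 1.25% of all genes. Counts of 1 or 2 genes are too few to set against these shares.

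In cDC2-like cells 9 of 30 genes were higher and 2 lower in CTX than in MRX, beside 2.96% and 2.22% of all genes, with Gbp2 and Socs1 among the higher ones with log2 ratios of 2.44 and 2.11. Between Combined and CTX 3 of 30 were higher and 2 lower (all genes 0.999% and 1.82%). Ifit1 and Ifit3, antiviral genes induced by type I interferon, had 1.77 and 1.59, and Il12b, a subunit of interleukin 12, had -2.68. At day 18 2 of 31 were higher and 3 lower in combod18t (all genes 2.74% and 1.78%), Isg15 being lower by -1.01. In NK-like cells of Combined and CTX, Ifng was at 142 and 68.3 CPM, a log2 ratio of 1.04, and was the 1 gene of 32 past the fold, which 0.218% of all genes passed upwards. At day 18 1 of 26 genes was higher in NK-like cells of combod18t and 3 were lower, beside 1.79% and 0.687% of all genes. The lower ones were the chemokines Ccl3 (-3.72), Ccl4 (-2.98) and Ccl5 (-1.31), and the higher one was Ccr7 (1.71), a receptor for entry into lymph nodes. In T-like cells 1 of 35 genes was lower in Combined than in CTX (all genes 0.353%). At day 18 2 of 36 were higher and 12 lower in combod18t, beside 2.25% and 2.49% of all genes. The lower ones included Ifng (-1.48) and Tbx21, the transcription factor T-bet (-1.06), and the higher ones were Ifngr2 (1.68) and S1pr1, a receptor for exit from lymph nodes (1.25). The resting cluster 2 made up 50.1% of the T-like cells of combod18t and 15.2% of those of ctxd18t, and the Gzmk cluster 6 made up 6.58% and 15.01%, and the part of this mix in the list's counts was not tested.

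Across 46 sums of 1 class in 1 library, each of at least 50 cells, the genes most like each member were listed by the Pearson correlation of log2(CPM + 1) among 11589 genes. Cxcl9 was most like Anxa4 (0.95), Ifitm3 (0.93), Tmem106a (0.93), Ifi202b (0.93) and Niban2 (0.93). Cxcl10 was most like the interferon-induced genes Rtp4 (0.89), Xaf1 (0.88) and Oas1a (0.88), then Lgals9 (0.87) and Gbp2b (0.86). Among those most like Cxcl11 were Il18bp (0.92), Oas1g (0.92), Il1rn (0.91) and Tgm2 (0.89). Cxcr3 was most like 1700097N02Rik (0.93), Cracr2a (0.88), Sytl1 (0.88), Sla2 (0.85) and Tmem191 (0.85). Between the chemokines the values were 0.88 for Cxcl9 and Cxcl11, 0.76 for Cxcl10 and Cxcl11 and 0.74 for Cxcl9 and Cxcl10. Cxcr3 had negative values, -0.51 with Cxcl9, -0.37 with Cxcl10 and -0.54 with Cxcl11. The sums share libraries and cell classes, so these values are descriptions.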

How the data were processed

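Droplet single-cell RNA sequencing of sorted tumour cells gave 1 library per treatment label. The authors' deposited files hold raw counts of UMIs per feature and cell barcode, made with Cell Ranger 9.0.1 on a multiplexed 3' chemistry per the labels' protocols, with build GRCm39 and Seurat 5.2.0 named in the submitters' processing notes. The 5 libraries used held 4085 to 9064 barcodes and 39820290 to 100733879 UMIs.

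Barcodes with at least 200 genes and at most 15% mitochondrial counts were kept, which removed 52 to 166 per library. Scrublet's own threshold marked under 0.5% of cells, so the 5% with the highest scores were removed in each library, leaving 25653 cells. Each cell was scaled to a total of 10000 and log-transformed. From 2000 variable genes without the 4 members, the pathway list, cell cycle, mitochondrial, ribosomal, haemoglobin and receptor genes, 30 principal components and 15 neighbours gave 28 Leiden clusters (scanpy 1.11.5, leidenalg 0.10.2, resolution 1, dendritic clusters again at 0.5). A class took the name whose 5 best markers scored highest, with at least 3 markers in 10% of cells. The rule for mixed clusters (another lineage at 0.4 of the best score and a depth over 1.5 times) was set after seeing the data and was not applied to dendritic clusters.

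Class counts were summed per library and given as CPM with exact Poisson intervals where a class had at least 20 cells. Log2 ratios used CPM + 1, with exact conditional binomial intervals computed without the pseudocount. Simulated counts with 200 changed genes were recovered in the right direction in all 4 comparisons tried, and the intervals held the true value for 95.4% to 96.0% of genes. The simulated counts were Poisson draws, the model that the intervals assume, so this checked the computation only. It left out the clumping of counts in few cells, which the intervals do not cover. Named genes were the members, the pathway list and, per member, the 5 genes most like it; some of these genes are not reported here. Members and gene lists were chosen with earlier results of these data known.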

Additional observations from a re-analysis of the deposited data

Results flagged for a closer look

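For 6 results the 2 pairs of libraries moved in opposite directions: higher in Combined than in CTX, and lower in combod18t than in ctxd18t, with counting intervals that exclude 0 on both sides. The difference between the pairs was not tested, since each label has 1 library. Cxcl10 had log2 ratios of 0.26 and -1.56 in monocyte-macrophage-like cells. In cDC2-like cells Cxcl10 had 0.87 and -2.10, and Cxcl11 had 0.80 and -2.20. In T-like cells Cxcl10 had 0.75 and -0.84, and Cxcr3 had 0.40 and -0.61. With the same mix of T-like clusters in both libraries of a pair, these Cxcr3 values were 0.29 and 0.0024, so combod18t was then not lower. T-like Cxcl10 was not read with the same mix. Cluster 2, low in Cxcl10, made up 15.2% of the T-like cells of ctxd18t and 50.1% of those of combod18t. In all conventional dendritic classes summed, Cxcl10 had -0.53 for Combined against CTX, the same direction as its day 18 value of -1.96. In the mixed cluster of T-cell and macrophage transcripts Cxcl10 had 0.88 and -1.59. Barcode sets cross the labels between the days, and day, barcode set and label cannot be told apart in this comparison. If the 2 day 18 labels were exchanged, the day 18 values would change sign and the pairs would run in the same direction in these results; whether they are was not tested.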

How the results depend on the processing

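Of the 22 main log2 ratios 15 kept their direction under all alternatives run, and 189 of 224 alternative values stayed within the main counting interval. No paired analysis was possible because each label has 1 library. Values below are for Combined against CTX unless day 18 (combod18t against ctxd18t) is named. With at least 500 genes per cell, cDC2-like Cxcl10 had 0.13 and Cxcl11 0.54, and neutrophil-like Cxcl9 0.37. With each library clustered separately, neutrophil-like Cxcl10 turned to 0.30 and monocyte-macrophage-like Cxcl9 at day 18 to 0.018, pDC-like Cxcr3 had -0.56, and NK-like Cxcl10 at day 18 had 3.02. With the mean of single-cell CPM, T-like Cxcl9 turned to 0.048, NK-like Cxcl10 had 0.60, and neutrophil-like Cxcl9, Cxcl10 and Cxcl11 had -0.58, -0.42 and 0.245. At day 18 that mean gave -1.47 for T-like Cxcl10, -0.88 for T-like Cxcr3 and 0.52 for NK-like Cxcr3. Without doublet removal, cDC2-like Cxcl10 and Cxcl11 had 0.35 and 0.46, and Cxcl9 in the mixed T-cell and macrophage cluster turned to -0.023. With cells lacking macrophage UMIs only, an alternative chosen after seeing the data, neutrophil-like Cxcl9, Cxcl10 and Cxcl11 had -0.60, -2.30 and -0.41, the last turning, and T-like Cxcr3 had 0.59. At day 18 it gave -0.83 and 1.31 for neutrophil-like Cxcl10 and Cxcl11, the last turning from -0.24, and 0.74 for NK-like Cxcl10. A pseudocount of 10 CPM gave -0.64 for T-like Cxcl10 at day 18, and resolution 2 gave 0.68 for NK-like Cxcr3. With cells thinned to 1000 UMIs, cDC2-like Cxcl10 and Cxcl11 had 2.23 and 1.67, neutrophil-like Cxcl10 and Cxcl11 -0.48 and 0.16, NK-like Cxcl10 and Cxcr3 0.57 and -1.06, T-like Cxcr3 0.65, and T-like Cxcl9 turned to 0.12. At day 18 thinning gave -2.09 and -1.08 for T-like Cxcl10 and Cxcr3, and -0.95 and -0.72 for neutrophil-like Cxcl10 and Cxcl11. The cause of these shifts was not tested. Few counts leave wide intervals, as for NK-like Cxcr3 at day 18 (-1.77 to 0.44).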
